A study of Homo sapiens and Mus musculus with 26 samples.

Results

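The genes described here build the mitotic spindle, attach chromosomes to it and divide the cell at the end of mitosis. They were chosen by symbol from the table of polyribosome-bound mRNA: kinesins, CENP centromere proteins, BUB1, BUB1B, BUB3 and TTK of the spindle checkpoint, the NDC80 complex, AURK and PLK kinases, the HAUS (augmin) complex with TPX2 and NUSAP1, the cytokinesis genes ANLN, ECT2 and PRC1, condensin with TOP2A, and the anaphase-promoting complex with CDC20. The rule found 75 of 8074 listed genes. Of these, 62 belong to 9 role groups of mitosis, 12 are kinesins known mainly for transport or cilia, and AURKAIP1, which encodes a mitochondrial protein, matched by its symbol only. ASPM, MAD2L1, PLK4 and SMC2, which the rule also names, had no row in the table. The table holds no gene below an FPKM (fragments per kilobase of gene and per fixed number of mapped fragments) of 1 in any library, so a gene that fell below that level anywhere is not seen.

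METTL1 is the catalytic subunit of the enzyme that places N7-methylguanosine on a set of tRNAs, and the study asked which genes are translated differently when it is depleted. MHCC97H, a human hepatocellular carcinoma cell line grown in DMEM, was used as NC control cells and as shMETTL1-2 cells, in which 1 short hairpin RNA targets METTL1. From each kind of cell, input RNA and polysome RNA (mRNA bound to several ribosomes) were sequenced, with repeats 1, 2 and 3, which makes 12 libraries in 4 groups of 3. No label says that the repeats are separate cultures, and the spread that each p-value rests on may therefore be technical.

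During mitosis, condensin and topoisomerase II compact and untangle the chromosomes, while kinesins, augmin and microtubule-binding proteins shape a bipolar spindle. Kinetochores assemble on CENP proteins and hold microtubules through the NDC80 complex, and the BUB and TTK checkpoint blocks the anaphase-promoting complex until every chromosome is attached. The anaphase-promoting complex with CDC20 then releases the sister chromatids, and ECT2, anillin (ANLN) and PRC1 organise the cleavage of the cell.

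METTL1 itself was lower in the knockdown in every repeat. Its polysome FPKM was 45.3, 43.8 and 38.2 in control and 8.29, 22.9 and 25.6 in knockdown cells, with a log2 difference of -1.26 ± 0.39 (SE) and a limma adjusted p of 0.0765, or 0.0141 with the repeat number as a block. Its input FPKM was 47.9, 39.3 and 36.0 against 11.9, 18.3 and 15.3. The input difference was -1.39 ± 0.24, with a limma adjusted p of 0.999978, or 0.196 with the block, so METTL1 was not called in input. The groups did not overlap in either RNA, and the weakest depletion in polysome RNA was in repeats 2 and 3.

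Several facts about the libraries touch every result below. The table gives no read depth, and FPKM per library summed to between 482334 and 821900. The libraries of input repeat 1 were unlike those of repeats 2 and 3: over the 75 genes, the SD of the log2 difference between control input repeats 1 and 2 was 1.28, against 0.14 between repeats 2 and 3. Control input repeat 1 lay close to control polysome repeat 1, with an SD of 0.16, whereas control input repeat 2 and control polysome repeat 2 differed with an SD of 1.17. The median within-group SD of the 75 genes was 0.15 in control polysome, 0.25 in knockdown polysome, 0.67 in control input and 0.70 in knockdown input. Of the markers of the tissue, 1 of 9 hepatocyte genes (HNF4A) and 2 of 4 epithelial genes (KRT8 and KRT18) were listed, while ALB and AFP were not. Of the other cell types' markers, 1 of 5 leukocyte genes (CD68), 0 of 3 endothelial genes and 0 of 5 fibroblast genes were listed.

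In polysome RNA of METTL1-depleted cells, 9 of the 75 genes fell and 0 rose. They were the cytokinesis genes ECT2 and ANLN, the checkpoint genes BUB1 and BUB1B, and the spindle genes KIF2A and NUSAP1. The others were the condensin II subunit NCAPG2, the centromere protein CENPI and the endosomal kinesin KIF16B. Knockdown levels of the 9 were between 28.3% (ECT2) and 55.4% (NCAPG2) of control. The share that fell was near the background and is no feature of these genes: limma called 12.7% of all 8074 genes lower and 1.09% higher at the same adjusted p of 0.05. In polysome RNA from whole cultures, fewer cells in mitosis and less polysome-bound mRNA of these genes per cell cannot be told apart. At an unadjusted p below 0.05, limma had 24 of the 75 lower and 10 higher, where 23.3% and 7.96% of all genes were. Over the 75 genes the median log2 difference was -0.34, against -0.03 over all genes, and 68.0% of them lay below 0, against 53.0% of all genes. In single repeats the median was -0.41, -0.24 and -0.27, against 0.05, -0.09 and -0.09 for all genes. Differences here are knockdown minus control on the log2(FPKM + 1) scale, which understates the change of low genes.

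How many genes passed depended on how the repeats were treated. With the repeat number as a block, 34 genes were lower and 14 higher, where 28.0% and 14.1% of all genes were called. The limma p-values with the block, given below for single genes, are to be read beside these shares. With all 12 libraries in 1 limma fit, 0 of the 75 were called (9 lower and 1 higher at an unadjusted p below 0.05), and with repeats 2 and 3 averaged as 1 sample the count was again 0 (15 and 0). Leaving out control polysome repeat 2 or 3, or knockdown polysome repeat 3, also ended all 9 calls, with adjusted p of 0.0535 to 0.0963 for these genes and no gene of the table called. Without knockdown polysome repeat 1, 21 were lower (23.4% of all genes) and 11 higher (8.15%). With equal library medians, which shift every difference by 0.17, ANLN, BUB1, CENPI and NUSAP1 lost the call, 5 genes were lower (5.39% of all genes) and CENPB and NCAPH2 higher (2.75%), both named because only 2 passed. Under that scaling the median over all genes turned from -0.03 to 0.14. The median turned from -0.12 to 0.057 for the kinesins of mitosis and from -0.10 to 0.074 for the centromere proteins. For the spindle assembly and augmin genes it turned from -0.16 to 0.013. The medians of these groups thus stayed below that of all genes. Quantile normalization gave 8 lower (7.44% of all genes; BUB1 was lost) and NCAPH2 higher (3.73%). Of the 65 genes whose mean FPKM reached 5, 7 were lower (10.7% of all such genes) and 0 higher (1.02%). Without repeat 1, which leaves 2 libraries against 2 that lie close together, 45 were lower (40.2% of all genes) and 18 higher (22.8%). In polysome RNA the knockdown and control libraries did not overlap for 27 genes that were lower and 10 that were higher, and the same held for 26.5% and 13.7% of all genes.

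**Figure D1:**
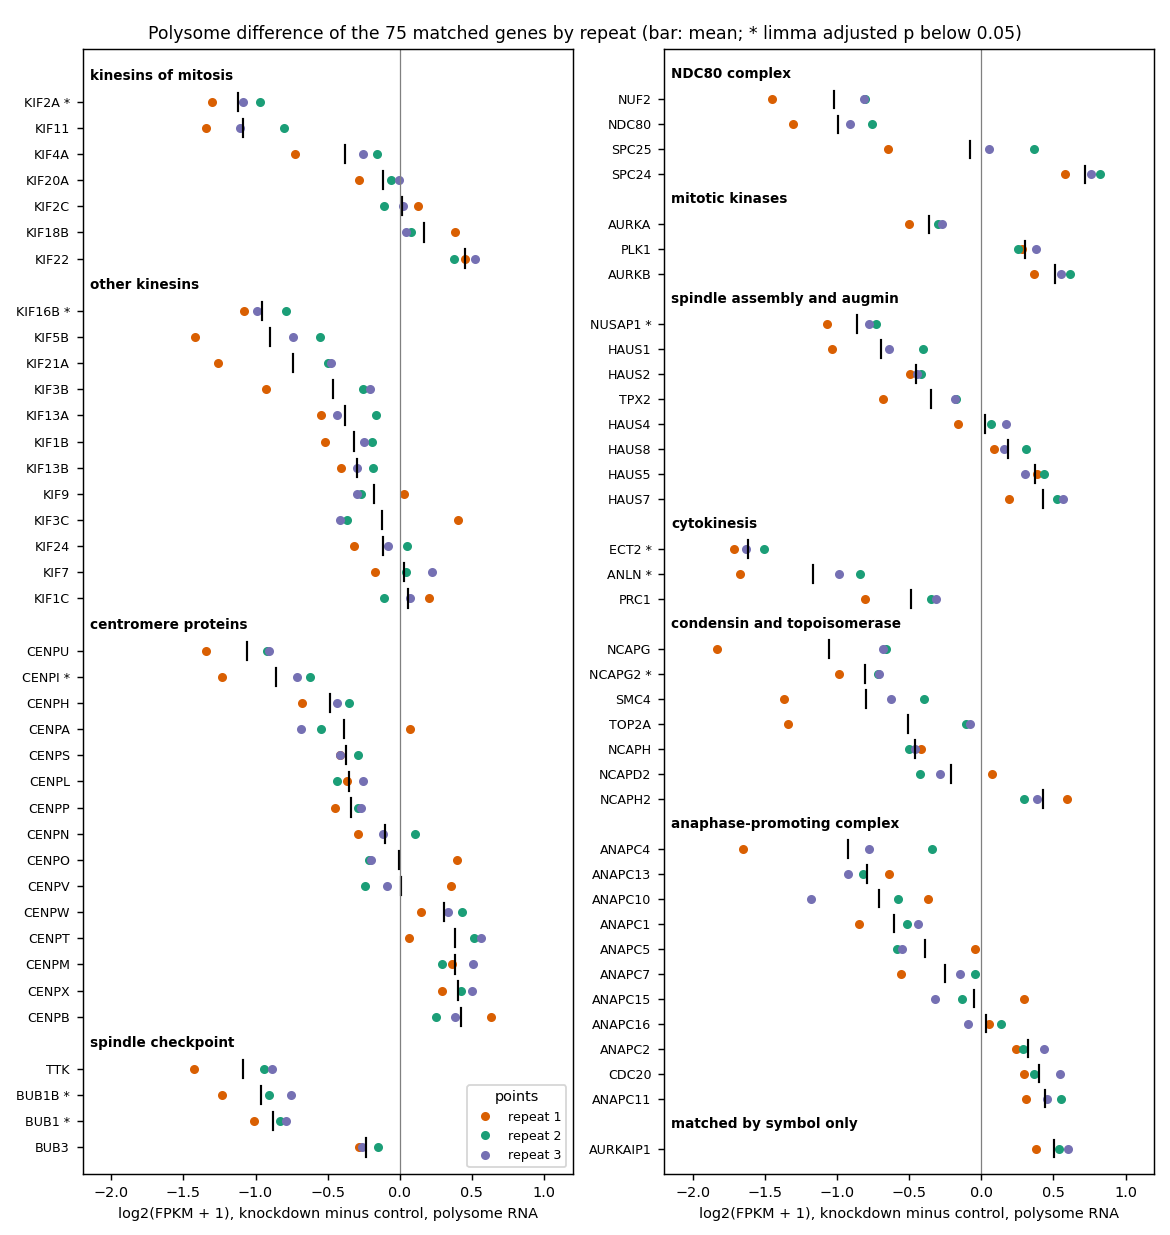
Difference of log2(FPKM + 1), knockdown minus control in polysome RNA, for the 75 genes by role group; points are the 3 repeats, black bars their mean, and a star marks a limma adjusted p below 0.05. The cytokinesis and checkpoint genes lie below 0 in all repeats, while AURKB, PLK1, SPC24 and CDC20 lie above 0, and repeat 1 is often the farthest point to the left.

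The cytokinesis genes had the lowest median of the role groups, -1.17. All 3 were lower without overlap between the groups, where 26.5% of all genes were. ECT2, which starts cleavage furrow ingression, lies on chromosome 3 (GRCh38, 172750726 to 172829265). Its polysome FPKM was 16.4, 15.6 and 15.0 in control and 4.29, 4.83 and 4.18 in knockdown cells. Every knockdown library was far below every control library. The mean went from 15.65 ± 0.69 to 4.43 ± 0.35 (SD, n = 3 each), a log2 difference of -1.62 ± 0.12 (SE) with a limma adjusted p of 0.00737, the smallest of the 75. ANLN, the actin-binding scaffold of the contractile ring (chromosome 7, 36389862 to 36453791), had 23.9, 21.4 and 22.3 in control and 6.79, 11.5 and 10.7 in knockdown cells. Its log2 difference was -1.17 ± 0.20 (limma adjusted p = 0.0148), and knockdown repeat 1 was the lowest. The call of ANLN was lost without control polysome repeat 1. PRC1, which bundles the microtubules of the central spindle, had 36.0, 39.3 and 38.2 against 20.2, 30.7 and 30.5. This difference of -0.49 ± 0.18 missed the threshold (limma adjusted p = 0.125, and 0.0199 with the repeat block).

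Of the 4 spindle checkpoint genes, 2 fell (12.7% of all genes) and 3 were lower without overlap (26.5% of all genes). Their median was -0.92. BUB1B (BubR1), a component of the complex that inhibits the anaphase-promoting complex, lies on chromosome 15 (40161069 to 40221123). It had a polysome FPKM of 14.4, 13.9 and 12.97 in control and 5.56, 6.96 and 7.28 in knockdown cells. BUB1, the kinase that recruits checkpoint proteins to kinetochores (chromosome 2, 110637528 to 110678063), had 20.2, 24.8 and 22.6 against 9.52, 13.5 and 12.7. All knockdown libraries of both genes were below all control libraries, and limma gave -0.97 ± 0.14 for BUB1B (adjusted p = 0.0103) and -0.88 ± 0.17 for BUB1 (0.0193). TTK (MPS1), the kinase at the head of this pathway and picked here after its values were seen, had 7.98, 13.2 and 12.3 against 2.34, 6.37 and 6.23. Its difference of -1.08 ± 0.35 was larger than those of the 2 called genes, but its libraries of each group were farther apart and limma's adjusted p was 0.0845 (0.00186 with the block). BUB3, the most abundant gene of the group, had 66.5, 53.2 and 53.3 against 54.5, 47.9 and 44.3. These groups overlapped, and the difference was -0.23 ± 0.15 (limma adjusted p = 0.328).

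Among 7 kinesins of mitosis 1 fell (12.7% of all genes), and the median was -0.12. KIF2A, which depolymerises microtubules at spindle poles (chromosome 5, 62306206 to 62391025), had 11.01, 12.4 and 12.1 in control and 3.86, 5.83 and 5.16 in knockdown polysome RNA. The log2 difference was -1.12 ± 0.16 (limma adjusted p = 0.0101). KIF11 (Eg5), which pushes the spindle poles apart, had 6.19, 10.3 and 11.6 against 1.83, 5.50 and 4.85. Its groups did not overlap and its difference of -1.08 ± 0.36 was as large as that of KIF2A, yet limma's adjusted p was 0.0948 (0.00167 with the block). KIF22, a chromosome-arm motor and the most abundant of these kinesins, went the other way, with 33.5, 43.0 and 40.6 against 46.3, 56.0 and 58.9 (0.45 ± 0.15, limma adjusted p = 0.1003, and 0.00975 with the block).

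The 12 other kinesins had a median of -0.31, with 1 gene called lower (12.7% of all genes). Of these 12, 7 were lower without overlap (26.5% of all genes). KIF16B carries early endosomes and has the largest genomic span of the called genes (chromosome 20, 16272104 to 16573448). It had 7.21, 6.92 and 7.06 against 2.88, 3.59 and 3.06, with a difference of -0.95 ± 0.12 (limma adjusted p = 0.00767). KIF5B, the heavy chain of conventional kinesin, had 12.9, 14.3 and 14.8 against 4.22, 9.42 and 8.49. Here knockdown repeat 1 was well below the other knockdown libraries, and the difference of -0.90 ± 0.27 had a limma adjusted p of 0.069 (0.00681 with the block). KIF1C, the most abundant of these 12, differed by 0.05 ± 0.13, with a limma adjusted p of 0.816.

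The 15 centromere proteins had a median of -0.10, close to that of all genes. CENPI, a subunit of the constitutive centromere network (chromosome X, 101098204 to 101181859), had 7.25, 6.48 and 6.17 in control and 2.51, 3.87 and 3.37 in knockdown polysome RNA. It differed by -0.86 ± 0.16 (limma adjusted p = 0.0166), and this call was also lost without control polysome repeat 1. CENPU, another subunit of that network, had 19.5, 29.4 and 26.5 against 7.08, 15.1 and 13.7, with a larger difference of -1.06 ± 0.29 and a limma adjusted p of 0.0587 (0.00155 with the block). CENPX, the most abundant of the 15, had 160, 258 and 239 against 195, 347 and 339. The CENPX groups overlapped although each repeat was above its control (0.41 ± 0.29, limma adjusted p = 0.379, and 0.0129 with the block).

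The NDC80 complex is built from 2 dimers. Limma called 0 of its 4 genes, with 1 lower and 1 higher at an unadjusted p below 0.05 (23.3% and 7.96% of all genes). The median was -0.53. NDC80, in 1 dimer with NUF2, had 11.5, 21.1 and 22.0 in control and 4.08, 12.1 and 11.2 in knockdown cells. NUF2, picked after its values were seen, had 8.03, 15.8 and 15.1 against 2.30, 8.56 and 8.18. For both genes control repeat 1 lay near knockdown repeats 2 and 3, so the groups overlapped. Their differences were -0.99 ± 0.42 and -1.03 ± 0.46, with limma adjusted p of 0.159 and 0.182 (0.00221 and 0.00299 with the block). The other dimer is SPC24 and SPC25. SPC24 had 7.38, 9.81 and 9.27 against 11.5, 18.1 and 16.4, the largest positive difference of the 75 genes (0.72 ± 0.20, limma adjusted p = 0.0581, and 0.00333 with the block). All knockdown libraries of SPC24 were above all control libraries. SPC25 had 20.9, 22.1 and 24.7 against 12.9, 28.9 and 25.7, where knockdown repeat 1 was the lowest library and repeats 2 and 3 the highest (-0.08 ± 0.29, limma adjusted p = 0.889).

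Limma called none of the 3 mitotic kinases. At an unadjusted p below 0.05 in limma, 1 was lower and 1 higher, where 23.3% and 7.96% of all genes were. AURKA, which matures centrosomes, had 75.2, 77.4 and 72.9 in control and 52.7, 62.5 and 60.2 in knockdown polysome RNA (-0.36 ± 0.12, limma adjusted p = 0.0945, and 0.0243 with the block). AURKB, the kinase of the chromosomal passenger complex, had 71.4, 89.0 and 90.1 against 92.4, 137 and 133 (0.51 ± 0.19, limma adjusted p = 0.127, and 0.00645 with the block). PLK1, which acts at centrosomes, kinetochores and the midbody, had 168, 198 and 187 against 205, 237 and 243 (0.30 ± 0.14, limma adjusted p = 0.188, and 0.0315 with the block). None of these 3 pairs of groups overlapped, with AURKA below control and AURKB and PLK1 above it (26.5% and 13.7% of all genes).

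NUSAP1 was the 1 gene called lower (12.7% of all genes) among 8 spindle assembly and augmin genes, whose median was -0.16. It encodes a protein that stabilises microtubules near chromosomes (chromosome 15, 41332881 to 41381046). Its polysome FPKM was 33.9, 35.6 and 35.4 in control and 15.6, 21.1 and 20.2 in knockdown cells (-0.86 ± 0.15, limma adjusted p = 0.0143). TPX2, the activator of Aurora A and the most abundant of the 8, had 113, 122 and 120 against 70.1, 108 and 105 (-0.35 ± 0.19, limma adjusted p = 0.254), and its difference was -0.15 without knockdown repeat 1. Leaving out that library also moved PRC1 to -0.30, NDC80 to -0.55, KIF11 to -0.71, KIF5B to -0.59, KIF21A to -0.44, CENPX to 0.67 and METTL1 to -0.78. Without control repeat 1, BUB3 moved to -0.13 and CENPX to 0.19, and without knockdown repeat 2 CENPX moved to 0.26. HAUS7, an augmin subunit whose locus overlaps TREX2, so that its counts are uncertain, had 36.8, 37.8 and 34.96 against 42.2, 54.7 and 52.1 (0.43 ± 0.14, limma adjusted p = 0.0869, and 0.0209 with the block).

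Condensin and TOP2A (7 genes) had a median of -0.51. NCAPG2, a subunit of condensin II (chromosome 7, 158631169 to 158704804), had 23.3, 22.1 and 21.5 in control and 11.3, 13.1 and 12.7 in knockdown cells (-0.80 ± 0.12, limma adjusted p = 0.0114). NCAPH, a subunit of condensin I, had 20.5, 24.8 and 22.3 against 15.1, 17.3 and 16.0 (-0.46 ± 0.13, limma adjusted p = 0.0626, and 0.0116 with the block). TOP2A, the decatenating topoisomerase, depended on 1 library: it had 15.4, 22.7 and 22.6 against 5.50, 21.0 and 21.4, so that only knockdown repeat 1 stood clearly below control. Its difference of -0.51 ± 0.49 (limma adjusted p = 0.518) became 0.08 without that library.

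The anaphase-promoting complex with CDC20 (11 genes) had 0 genes called by limma and a median of -0.25. At an unadjusted p below 0.05, limma had 2 lower and 3 higher, where 23.3% and 7.96% of all genes were. ANAPC1, the largest scaffold subunit, had 13.04, 9.79 and 9.08 in control and 6.78, 6.55 and 6.42 in knockdown polysome RNA (-0.60 ± 0.16, limma adjusted p = 0.0503, and 0.00907 with the block). ANAPC11, the RING subunit, had 114, 122 and 134 against 142, 180 and 185 (0.44 ± 0.15, limma adjusted p = 0.103, and 0.0103 with the block). CDC20, the activator that the checkpoint restrains, had 118, 133 and 131 against 145, 172 and 191 (0.40 ± 0.15, limma adjusted p = 0.116, and 0.0147 with the block). ANAPC1 was lower and ANAPC11 and CDC20 were higher in every knockdown library than in any control library.

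**Figure D2:**
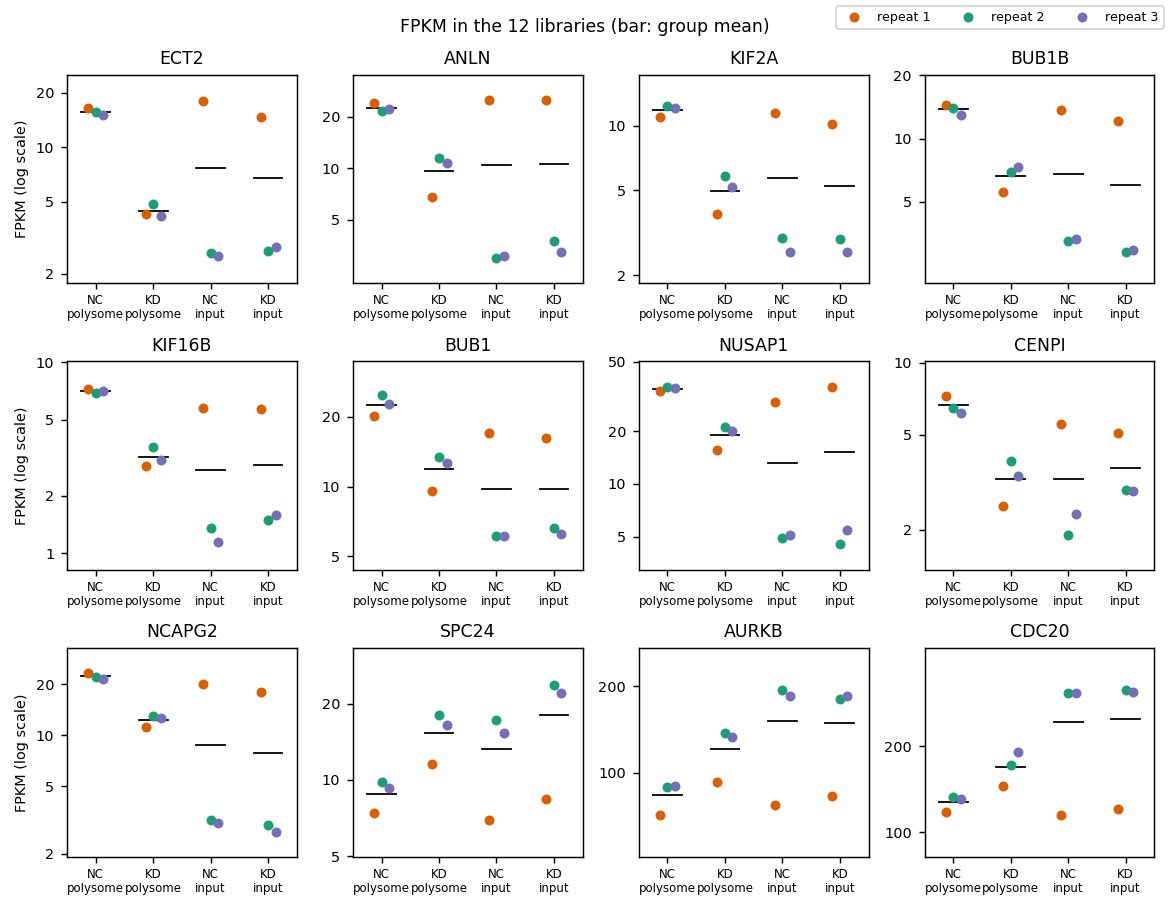
FPKM on a log axis in each of the 12 libraries for the 9 genes that fell in polysome RNA and for SPC24, AURKB and CDC20; points are the repeats and bars the group means. In polysome RNA the knockdown points of the 9 genes lie below all control points, while in input RNA repeat 1 lies above repeats 2 and 3 in both kinds of cell; for SPC24, AURKB and CDC20 it lies below them.

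Many mitotic genes share promoter elements that restrict their transcription to the late cell cycle, the CCAAT box, bound by NF-Y, and the cell cycle genes homology region (CHR), bound by the DREAM and MuvB complexes. The letters searched were CCAAT and, for CHR, TTTGAA or TTTAAA, on both strands and over 250 bases before to 50 bases after the RefSeq start (GRCh38.p14). Of the 75 genes, 66 had a promoter entry. CHR letters were found in 29 of the 66 (43.9%), in 14.1% of the promoters of 6633 listed genes and in 24.3% of all 27305 promoters. CCAAT was found in 30 (45.5%), against 37.6% and 35.7%, and both motifs in 16 (24.2%), against 5.79% and 9.49%. In none of the 66 did a CCAAT match overlap a CHR match. The 29 genes with CHR letters had a median polysome difference of -0.49, and the 37 without had a median of -0.11. All listed genes were not split in this way, and whether the letters have a part in the difference was not tested. The following 6 upstream stretches of 120 bases, each ending at the base before the start, show that genes on both sides of 0 carry these letters: ECT2, ANLN, BUB1B and NUSAP1 fell, and PLK1 and CDC20 had positive differences. They are written 5′ to 3′ on the strand of the gene, with CCAAT or CHR letters of either strand in capitals.
ECT2: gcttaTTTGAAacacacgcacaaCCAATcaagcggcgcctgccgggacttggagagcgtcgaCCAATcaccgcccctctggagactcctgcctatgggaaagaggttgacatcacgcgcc
ANLN: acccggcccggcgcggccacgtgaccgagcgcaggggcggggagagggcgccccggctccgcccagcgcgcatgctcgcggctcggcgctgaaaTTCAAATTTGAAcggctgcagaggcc
BUB1B: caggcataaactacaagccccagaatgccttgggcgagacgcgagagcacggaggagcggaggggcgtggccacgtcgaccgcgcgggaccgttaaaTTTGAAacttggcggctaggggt
NUSAP1: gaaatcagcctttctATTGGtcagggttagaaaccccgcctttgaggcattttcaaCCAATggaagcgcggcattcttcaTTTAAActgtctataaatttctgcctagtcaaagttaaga
PLK1: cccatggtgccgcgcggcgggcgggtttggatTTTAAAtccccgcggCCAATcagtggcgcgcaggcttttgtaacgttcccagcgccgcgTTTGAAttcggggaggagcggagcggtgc
CDC20: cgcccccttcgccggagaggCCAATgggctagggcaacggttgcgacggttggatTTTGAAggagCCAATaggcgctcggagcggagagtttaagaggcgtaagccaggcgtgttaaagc

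These stretches lie at chr3:172750606-172750725 (ECT2), chr7:36389742-36389861 (ANLN), chr15:40160949-40161068 (BUB1B), chr15:41332761-41332880 (NUSAP1), chr16:23678769-23678888 (PLK1) and chr1:43358861-43358980 (CDC20), all on the plus strand. The CHR letters nearest to the start began 20 bases before it in ANLN, 23 in BUB1B, 29 in PLK1, 40 in NUSAP1, 65 in CDC20 and 115 in ECT2. CCAAT matches began 73 bases before the start in PLK1, 64 and 105 in NUSAP1, 55 and 100 in CDC20, and 58 and 97 in ECT2. A further match in ECT2 began 2 bases before the start and runs past the printed stretch. ANLN and BUB1B had no CCAAT match in the 250 bases upstream. A match describes letters only, and no binding was measured in these cells.

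Input RNA asks whether the same transcripts changed in amount before polysomes were separated. None of the 75 genes was called in input (limma, 0 at an unadjusted p below 0.05, where 44 of 8074 genes were), and 0% of all genes were called. METTL1 was not called either, although its input groups did not overlap, so the lack of a call does not show an unchanged level. With the repeat block the count for the 75 was also 0, where 0.0124% of all genes were higher and 0% lower. The median over the 75 was 0.01, against -0.03 over all genes, and -0.04, 0.02 and 0.00 in the single repeats. No member was without overlap between the groups, whereas 2.42% of all genes were lower and 1.91% higher without overlap. The SE of the input difference was 0.90 for ECT2 and 1.04 for ANLN when the repeat number was ignored, and 0.11 and 0.10 with the repeat block, where limma's adjusted p was 0.864 and 0.602. ECT2 had an input FPKM of 18.0, 2.61 and 2.50 in control and 14.8, 2.67 and 2.82 in knockdown cells. ANLN had 25.1, 3.01 and 3.07 against 24.9, 3.79 and 3.23. In both genes repeat 1 was far above repeats 2 and 3 in both kinds of cell, while the knockdown value of each repeat lay near the control value of that repeat.

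The input fit gave the smallest p to KIF21A, SPC25 and KIF1C. KIF21A, a kinesin that restrains microtubule growth, had 7.56, 4.85 and 4.98 in control and 7.29, 9.90 and 10.9 in knockdown input (0.62 ± 0.30). SPC25 had 15.5, 18.9 and 18.9 against 17.3, 31.0 and 30.4 (0.50 ± 0.29), and KIF1C had 58.6, 71.7 and 73.8 against 43.1, 57.8 and 58.9 (-0.35 ± 0.21). All 3 had a limma adjusted p of 1.00. The 4 NDC80 complex genes all had positive input differences, with a median of 0.36. Without repeat 1, limma called 12 of the 75 lower and 19 higher in input, where 31.7% and 20.5% of all genes were called.

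Translation efficiency was taken as the polysome difference minus the input difference, tested as an interaction over all 12 libraries. Limma called none of the 75 genes and 0% of all genes, with 4 of the 75 lower and 0 higher at an unadjusted p below 0.05 (3.63% and 0.533% of all genes). The median over the 75 was -0.32, against 0.04 over all genes, and it was -0.32, -0.27 and -0.28 in the single repeats. Of the 75, 41 (54.7%) were below 0 in every repeat, as were 35.1% of all genes. The 9 genes that fell in polysome RNA were among the 41, but the values that chose them enter this difference too. In 11 genes the 3 knockdown values of polysome minus input were below the 3 control values (6.08% of all genes), and in 1, PLK1, they were above (10.6% of all genes). Input repeat 1, which lay close to polysome RNA in control cells, enters these values.

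The smallest p in this test went to KIF21A, KIF3B and CENPI. KIF21A had translation efficiency differences of -1.21, -1.39 and -1.48 in the 3 repeats (-1.36 ± 0.40). KIF3B, a subunit of the heterotrimeric kinesin of cilia, had -0.91, -0.69 and -0.60 (-0.73 ± 0.29), and CENPI had -1.13, -1.06 and -0.95 (-1.05 ± 0.43). All 9 of these values were below 0, and limma's adjusted p was 0.977 for all 3 genes. ECT2 had -1.45, -1.53 and -1.76, which stayed close together although its input FPKM differed between repeats 1 and 2 by a wide margin. The fitted difference, without the repeat block, was -1.58 with an SE of 0.96. Without repeat 1, limma called 39 of the 75 lower and 19 higher in translation efficiency (35.2% and 31.8% of all genes).

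The level of these transcripts in polysome RNA relative to input differed between the repeats, as it did for all genes. In control cells the median log2 level in polysome minus input over the 75 genes was 0.04 in repeat 1, 0.80 in repeat 2 and 0.90 in repeat 3. In knockdown cells it was -0.25, 0.61 and 0.47, lower in every repeat. Over all genes the control medians were 0.03, 0.60 and 0.58 and the knockdown medians 0.01, 0.53 and 0.52, which were also lower in every repeat. The 9 genes that fell had control medians of 0.21, 1.85 and 1.91 and knockdown medians of -0.998, 0.92 and 0.92. ECT2, for example, had a control polysome FPKM 0.911, 5.96 and 6.01 times its input FPKM. The 10 genes that were higher without overlap in knockdown polysome RNA had control medians of -0.01, -0.86 and -0.95, and CDC20 had ratios of 1.03, 0.432 and 0.424. These levels and the knockdown differences share the control polysome libraries, so their relation was not tested.

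The polysome difference went with the genomic span of the gene, introns included, both in these genes and in the whole table. The Spearman correlation between difference and span was -0.573 over the 75 genes and -0.455 over 8068 genes with a span, a description over genes that share the same 6 libraries. The 23 genes under 20 kb had a median difference of 0.37, and 17 of them were above 0, including AURKB, PLK1, SPC24, CDC20 and KIF22. All listed genes under 20 kb had a median of 0.16, and 31.5% of them were below 0, against 26.1% of the 23. The 30 genes of 20 to 50 kb had a median of -0.46 (all genes -0.11), with 24 below 0, as were 60.6% of all such genes. The 22 genes of at least 50 kb had a median of -0.53 (all genes -0.32), with 21 below 0 (95.5%, against 76.0% of all such genes). Of the 9 called genes, 0 were under 20 kb, 2 were of 20 to 50 kb and 7 of at least 50 kb. The share of all genes called in each span class was not counted, so these calls have no background to stand against. The median span was 30.8 kb for the 75 genes and 26.4 kb for all genes. After the trend with span was removed, all 9 calls remained, where 8.89% of all genes were called lower and 1.02% higher. The median over the 75 was then -0.19, against -0.05 over all genes. What part span has in the differences was not tested beyond this.

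**Figure D3:**
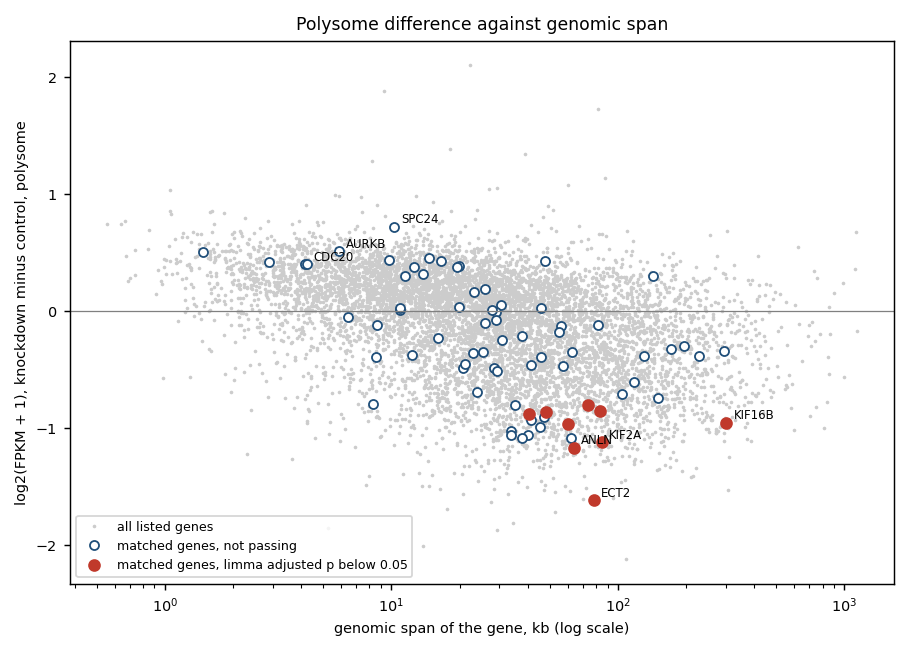
Polysome difference on the log2(FPKM + 1) scale against genomic span in kb (log axis); grey points are all listed genes, open circles the 66 matched genes that did not pass and red circles the 9 that did. Differences become lower with larger span in both, and SPC24, AURKB and CDC20 lie among the short genes above 0.

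A second list held mitotic genes that the rule does not take, such as cyclins, cohesin, further kinetochore proteins and further subunits of the anaphase-promoting complex. Of 86 symbols, 68 were listed, 12 fell and 0 rose in polysome RNA, where limma called 12.7% of all genes lower and 1.09% higher, with 29 lower and 3 higher at an unadjusted p below 0.05 in limma (23.3% and 7.96% of all genes). Their median was -0.33, with 47 below 0 and 21 above. RAD21, the cohesin subunit cut by separase, had 67.3, 70.1 and 71.6 in control and 28.2, 36.1 and 32.3 in knockdown cells (-1.10 ± 0.13, limma adjusted p = 0.0076). CDC27, a core subunit of the anaphase-promoting complex, had 15.1, 15.3 and 15.2 against 4.48, 6.96 and 6.45 (-1.24 ± 0.17, limma adjusted p = 0.00937). NSL1, of the MIS12 kinetochore complex, MASTL, the Greatwall kinase that holds the cell in mitosis, and ZW10, of the complex that brings dynein to kinetochores, fell by 0.87, 0.88 and 0.96 on the log2 scale (limma adjusted p = 0.00913, 0.00913 and 0.00938). The knockdown libraries of these 5 genes were all below their control libraries, but the 5 were chosen by the smallest p, which favours this. Of the 68, 28 (41.2%) were lower and 5 (7.35%) higher without overlap, against 26.5% and 13.7% of all genes.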

How the data were processed

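The authors deposited 1 table of gene FPKM covering all 12 MHCC97H libraries. The submitters' processing notes list Bowtie2, HTSeq and GRCh38, with neither version nor role. Strand settings, the annotation and the polysome isolation were not given in the sources used here. Groups and repeat numbers came from the sample titles. Tests used limma 3.58.1 (R 4.3.3) on log2(FPKM + 1), two-sided, with an intensity trend, p-values adjusted by Benjamini-Hochberg over 8074 genes, and calls at an adjusted p of 0.05. No gene was filtered. Polysome and input differences were each fitted on their own 6 libraries, and translation efficiency as an interaction over all 12. The fit was run on simulated data with independent noise in each library. Those data lack the offset of repeat 1 and the closeness of repeats 2 and 3, so the run does not bear on them. The members, the gene lists, the naming rule and these separate fits were chosen with earlier results of these data known. Genes named were METTL1, those called, and from each role group those with the smallest p and the highest level. The 3 smallest p in input and in translation efficiency, and 5 of the second list, were also named. Any other gene was picked after its values were seen. Same-numbered libraries deviated together (18 correlations, 0.32 to 0.94), but so did repeats 2 and 3 of different groups (0.33 to 0.93), since repeat 1 stood apart. The repeat block is given where it changes a call or count. Alternatives are given in the closing section. TRAC-Seq libraries were not used here.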

Additional observations from a re-analysis of the deposited data

Results flagged for a closer look

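In 5 genes the polysome difference and the input difference had opposite signs in all 3 repeats. The share of all genes that met this criterion was not counted, so the 5 have no background to stand against. KIF18B, HAUS8 and HAUS2 are named because they met it. Limma's interaction test called none of the 5 genes, with adjusted p between 0.977 and 0.980. NDC80 had -0.99 in polysome RNA (repeats -1.30, -0.76 and -0.91) and 0.33 in input (0.09, 0.52 and 0.39). CENPU had -1.06 in polysome RNA and 0.07 in input, and HAUS2, an augmin subunit, had -0.45 (repeats -0.49, -0.42 and -0.45) and 0.28 (0.03, 0.41 and 0.40). KIF18B, a kinesin of mitosis, had 0.17 in polysome RNA and -0.12 in input, and HAUS8, another augmin subunit, had 0.19 and -0.15. Their input values in repeat 1 lay closest to 0 in NDC80, HAUS2, KIF18B and HAUS8, where input repeat 1 also lay near control polysome repeat 1, and the part of that in these signs was not tested.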

How the results depend on the processing

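The polysome count of 9 lower and 0 higher became 0 lower with all 12 libraries in 1 fit or with repeats 2 and 3 averaged, 5 and 2 with equal medians, 34 and 14 with the replicate block, and 1 higher (8 lower) with quantile normalization. Leaving out 1 library or repeat 1 gave 0 to 45 lower and 0 to 18 higher. The polysome median of -0.34 moved to -0.16 with equal medians and -0.15 with quantile normalization (all genes 0.14 and 0.074, against -0.03 in the reported fit). It moved to -0.19 with the span trend removed and -0.22 at a pseudocount of 5 (all genes -0.052 and -0.019). With libraries left out it lay between -0.33 and -0.24. In input, leaving out libraries gave 0 to 12 lower, 0 to 19 higher and medians of -0.23 to 0.34, and quantile normalization a median of 0.044. Translation efficiency gave 0 to 39 lower, 0 to 19 higher and medians of -0.63 to -0.071 with libraries left out. Its median was -0.18 with equal medians and -0.19 with quantile normalization (all genes 0.19 and 0.12, against 0.04 in the reported fit). It was -0.23 with the span trend removed, at a mean FPKM of at least 5 or at a pseudocount of 5 (all genes -0.0027, 0.097 and 0.025). The replicate block left the input and translation efficiency counts at 0. The sign turned for KIF1C in polysome RNA (-0.019 without repeat 1 and just below 0 without knockdown polysome repeat 1, up to 0.16 with other libraries left out), for SPC25 (0.10 with equal medians, 0.053 with quantile normalization, 0.21 without repeat 1 and 0.26 without knockdown polysome repeat 1, down to -0.29 with others left out), for TOP2A (0.082 without knockdown polysome repeat 1, down to -0.81 with others left out) and for the translation efficiency of METTL1. The last, 0.13 in the reported fit, was -0.21 with the span trend removed, -0.0023 with repeats 2 and 3 averaged, -0.027 without knockdown input repeat 1 and -0.075 and -0.15 without knockdown polysome repeats 2 and 3, and reached 0.61 without knockdown polysome repeat 1. The cause was not tested. The table gives no depth, so counting error at low FPKM is unknown.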
